A study of Mus musculus with 2 samples.

Results

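The Pi16 Dpp4 adventitial fibroblasts of the mouse Achilles tendon enthesis, the site where the tendon inserts into bone, were taken from single-cell RNA counts of 2 droplet libraries. A barcode was a member when at least 300 genes were detected, mitochondrial genes took at most 20% of its UMIs (unique transcript molecules), and it had at least 0.5% of its UMIs from Col1a1, Col1a2 and Col3a1, at least 2 UMIs from Pi16 and Dpp4 together and at most 1 UMI of the leukocyte gene Ptprc. It also had to hold less than 0.1% of UMIs from the tendon genes Thbs4, Comp and Tnmd, no UMI of Clic5 and fewer than 3 UMIs of Top2a, Mki67 and Ube2c. This gave 2259 members of 26975 barcodes, with 1803 of 15545 in the tail suspension library and 456 of 11430 in the non-tail suspension library. The rule reads the cells' own expression, so the genes it uses, and every difference between members and other cells, are descriptions and no test.

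Tail suspension (TS) takes the load off the hindlimbs, and non-tail suspension (NTS) leaves it on. Both groups were SKG mice, a strain that carries a Zap70 mutation and is prone to autoimmune arthritis, and the labels give neither age, sex, number of pooled animals nor whether disease was induced. Each group is 1 library, so no comparison between TS and NTS has a replicate, and none was tested. The 2-fold limit used to call a difference is therefore a size and not a test. Every interval below is an exact 95% interval that covers counting error only, except the limits of a list median. Those limits reflect the spread over the genes of the list.

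Fibroblasts that express Pi16 lie in the adventitia, the loose connective tissue around vessels and tissue sheaths, and are found in many mouse organs. Pi16 encodes peptidase inhibitor 16, a secreted protein, and Dpp4 encodes a cell-surface dipeptidyl peptidase. In mouse subcutaneous fat and skin, Dpp4+ Pi16+ cells are known as progenitors that give rise to other fibroblasts and to fat cells, and they lie in a sheet of fibrous tissue rich in hyaluronan and elastic microfibrils.

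Members held 25428603 UMIs in TS and 10465319 in NTS, with a median of 12404 UMIs per cell in TS and 22236 in NTS. The libraries as a whole held 166606774 UMIs in TS and 121868851 in NTS, and 47 barcodes occurred in both libraries, 0 of them members in both. Median mitochondrial shares of members were 2.56% in TS and 3.45% in NTS. Because TS members are shallower, levels are given as CPM, which is a gene's UMIs summed over members and scaled to a common total, and shares of cells are also given after each cell was thinned to 2000 UMIs. Haemoglobin and Alas2, the red cell list, summed to 346 CPM in TS members, with 5 of 5 genes detected, and 2.48 CPM in NTS members, with 3 of 5 detected and Hbb-bt and Alas2 at 0. Its 95th percentile over cells was 191 CPM in TS and 5.18 CPM in NTS, the median was 0 in each library, and its part in the results was not tested.

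Pi16 supplied nearly all of the signal that chose the members. It lies on the plus strand at chr17:29317680-29330593 of GRCm38, and was found in 99.9% of TS members and 100% of NTS members, at 2977 CPM in TS and 3374 CPM in NTS. Dpp4, on the minus strand at chr2:62330073-62412231, was found in 18.4% of TS members and 20.8% of NTS members, at 23.4 CPM in TS and 21.6 CPM in NTS. Pi16 made up 99.2% of the Pi16 and Dpp4 UMIs in TS and 99.4% in NTS, so membership rests on Pi16 far more than on Dpp4. The median member had 1922 CPM of the 2 genes together in TS and 1651 CPM in NTS, and the 25th to 75th percentiles ran from 702 to 4498 CPM in TS and from 413 to 5108 CPM in NTS.

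**Figure D1:**
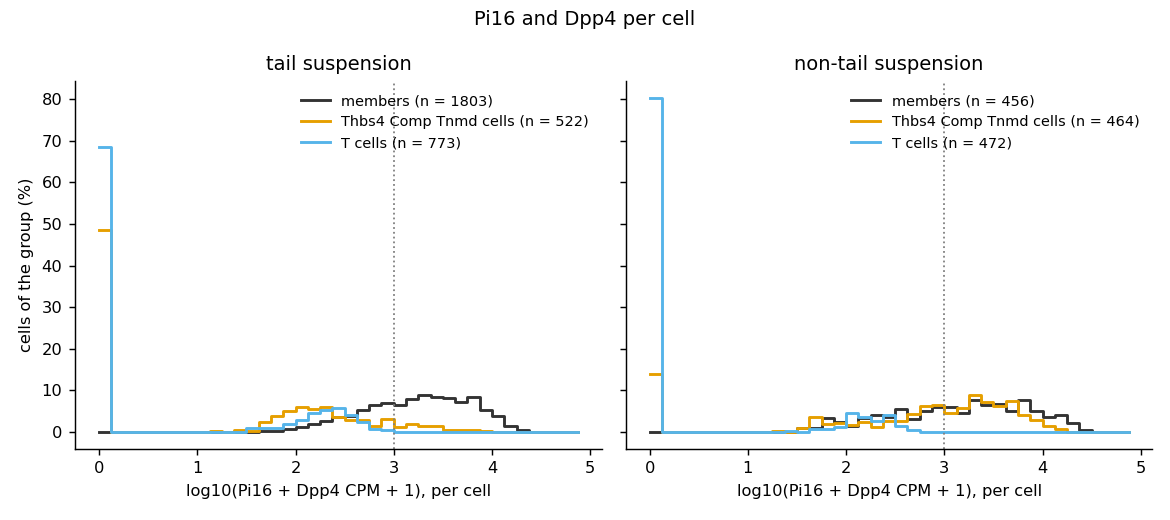
Distribution over cells of Pi16 plus Dpp4, as log10(CPM + 1), in TS (left) and NTS (right); lines give the percent of cells of each group per bin, for members, Thbs4 Comp Tnmd tendon cells and T cells, and the dotted line marks 1000 CPM. Members spread widely on either side of the line, T cells lie almost wholly to its left, and the tendon cells of NTS overlap the members.

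Pi16 and Dpp4 were also read in T cells. Dpp4 had 13.2 CPM in T cells of TS and 15.2 CPM in those of NTS, beside 23.4 CPM in TS members and 21.6 CPM in NTS members. Pi16 had more, with 106 CPM (547 UMIs) in T cells of TS and 23.4 CPM (80 UMIs) in those of NTS. Dpp4 had 68 UMIs in T cells of TS and 52 in those of NTS. The shares below thus count both genes, and more of Pi16 than of Dpp4. T cells, chosen on Cd3d, Cd3e and Cd3g and not expected to make Pi16, had 2 or more UMIs of Pi16 and Dpp4 in 8.02% of 773 cells in TS (interval 6.20 to 10.2%) and in 4.66% of 472 cells in NTS (2.94 to 6.97%), at median depths of 4674 UMIs in TS and 5659 in NTS. Members with just 2 or 3 UMIs numbered 285 (15.8%) in TS and 66 (14.5%) in NTS. Just outside the threshold, 379 cells in TS and 90 cells in NTS met every other condition with 1 UMI, against 174 in TS and 41 in NTS with 2 UMIs. A stricter level, at least 0.1% of UMIs from Pi16 and Dpp4, was reached by 0.518% of T cells in TS and by 0 of 472 in NTS, whose exact interval reaches 0.779%. Tendon cells reached this level in 7.28% of cases in TS and 49.1% in NTS. Among all collagen cells that were not members, 14.9% in TS and 35.9% in NTS reached the level. It was reached by 1202 members (66.7%) in TS and 274 (60.1%) in NTS, called bright members here; the level was chosen after the values were seen.

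The tendon condition of the rule weighs differently on the 2 libraries. Of collagen cells with at most 1 Ptprc UMI, 53.7% in TS and 67.5% in NTS had at least 2 UMIs of Pi16 and Dpp4. The limit on Thbs4, Comp and Tnmd then removed 888 of these cells in TS and 819 in NTS, which left 37.9% in TS and 25.9% in NTS, so the order of the libraries turns at this step. Cells rich in Thbs4, Comp and Tnmd had 2 or more Pi16 and Dpp4 UMIs in 28.5% of 522 cells in TS and in 78.7% of 464 cells in NTS. Their summed Pi16 and Dpp4 level was 409 CPM in TS and 2031 CPM in NTS, against 3000.2 CPM in TS members and 3396 CPM in NTS members.

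With the whole rule, members were 32.1% of 5621 collagen cells in TS (30.9 to 33.3%) and 23.2% of 1965 in NTS (21.4 to 25.1%). When cells were thinned to 2000 UMIs and the rule was applied anew, 24.8% of 5338 collagen cells in TS and 15.3% of 2070 in NTS met it. Of the cells that met it then, 81.8% in TS and 78.9% in NTS were members before thinning. Bright members were 21.4% of collagen cells in TS and 13.9% in NTS. Collagen cells themselves were 38.8% of kept cells in TS and 17.9% in NTS, and members were 12.4% of kept cells in TS and 4.17% in NTS. The intervals of these shares do not overlap, but each stands on 1 dissociation per group, and how well the digestion freed these cells cannot be told apart from their number in the tissue.

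The label was checked against a list of 30 adventitial markers, all of which were detected in members of both libraries. Without Pi16 and Dpp4, 26 of 28 were higher in members than in the other collagen cells in TS and 27 of 28 in NTS, with median log2 ratios of 1.07 in TS and 0.93 in NTS, beside -0.03 over all genes tested in each library. At least 2-fold higher were 15 of 28 in TS, where 2.11% of all genes were, and 13 of 28 in NTS, where 1.73% were. The list was drawn up with earlier results of these data known, so these counts describe the members and are no independent check of the label.

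Tnxb, which encodes the matrix glycoprotein tenascin-X, had 555 CPM in TS members and 374 CPM in NTS members, against 206 CPM in other collagen cells of TS and 80.2 CPM in those of NTS. Has1, a hyaluronan synthase, had 864 CPM in TS members and 555 CPM in NTS members, against 470 and 358 CPM in other collagen cells of TS and NTS. Ptx3, a pentraxin that is built into hyaluronan matrix, had 1941 CPM in TS members and 1031 CPM in NTS members, against 763 and 716 CPM in other collagen cells. Members over other collagen cells gave log2 ratios of 1.43 in TS and 2.22 in NTS for Tnxb, of 0.88 in TS and 0.63 in NTS for Has1, and of 1.35 in TS and 0.53 in NTS for Ptx3. The other collagen cells thus also carried both hyaluronan genes, and Tnxb had the largest of the 3 ratios in each library.

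Among further surface markers, Cd34, a sialomucin of progenitor cells, had 593 CPM in TS members and 469 CPM in NTS members, against 226 and 208 CPM in the other collagen cells of TS and NTS. Cd248, or endosialin, had 296 CPM in TS members and 352 CPM in NTS members, against 125 and 167 CPM. Limch1 and Aldh1a3 went against the list in TS, with log2 ratios of members over other collagen cells of -1.13 and -0.53, and Igfbp6 went against it in NTS, at -0.15.

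**Figure D2:**
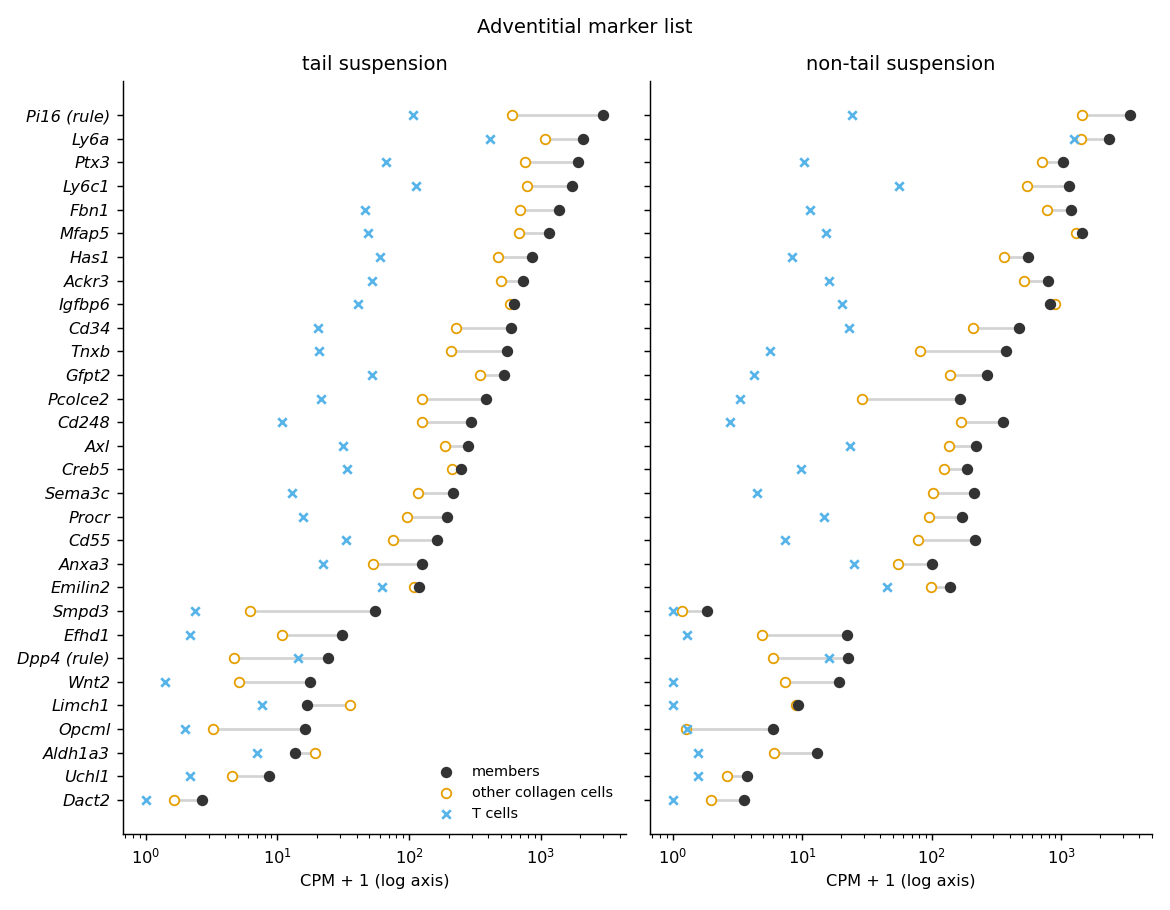
Level of each of the 30 adventitial markers, as CPM + 1 on a log axis, in TS (left) and NTS (right); filled points are members, open points other collagen cells and crosses T cells, and the 2 genes of the rule are marked. Most members' points lie to the right of the open ones, with Limch1 and Aldh1a3 reversed in TS and Igfbp6 in NTS, and Smpd3 is near 0 in NTS.

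Over all genes, 38 were at least 2-fold higher in members than in the other collagen cells in both libraries and 20 were at least 2-fold lower. Genes of the rule and markers of non-fibroblast cells were left out of these counts. Genes of the adventitial list were not left out, and Pcolce2 and Tnxb are among the higher ones. Several of the highest encode secreted or matrix proteins. Ccl11, or eotaxin, an eosinophil attractant, had 425 CPM in TS members and 191 CPM in NTS members, against 116 and 36.9 CPM in other collagen cells of TS and NTS. Pcolce2, an enhancer of procollagen C-proteinase, had 384 CPM in TS members and 166 CPM in NTS members, against 125 and 28.1 CPM. Efemp1, or fibulin-3, had 167 CPM in TS members and 246 CPM in NTS members, against 29.8 and 85.4 CPM.

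Enzymes were among them too. Ace, the angiotensin-converting enzyme, had 199.5 CPM in TS members and 178 CPM in NTS members, against 53.2 and 51.6 CPM in the other collagen cells. Lpl, lipoprotein lipase, had 429 CPM in TS members and 252 CPM in NTS members, against 151 and 54.8 CPM, but the cells chosen on Cxcl14 and Inmt had 564 CPM in TS, above the members. Dpep1, a membrane dipeptidase, had log2 ratios of 1.71 in TS and 1.49 in NTS, and Gsn, the actin-severing protein gelsolin, was the most abundant of the 20 named genes, at 5824 CPM in TS members and 2967 CPM in NTS members. The others named by the rule, in order, were Ifi205, Ifi211, Plac8, Slfn5, Slit3, Adm, Cadm3, Ccl8, Rarres2, Scara5, Adgrd1 and Adamts15, with log2 ratios between 1.15 and 2.17. For several named genes the cells chosen on Cxcl14 and Inmt came within 2-fold of members in TS. They had 317 CPM of Ccl11 and 3944 CPM of Gsn there, and Ifi205, Ifi211, Slfn5, Dpep1, Ccl8 and Rarres2 were likewise within 2-fold. In NTS they had 15.4 CPM of Ccl11 and 477 CPM of Gsn, and all of these genes were more than 2-fold below members.

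Most of the genes named as lower in members are of tendon or of dividing cells. Fmod, the proteoglycan fibromodulin, had 24.97 CPM in TS members and 36.6 CPM in NTS members, against 2588 CPM in tendon cells of TS and 2392 CPM in those of NTS. Col11a1, Angptl7, C1qtnf3, Clu, Ecrg4 and Fibin were likewise higher in tendon cells than in members in both libraries, and Birc5 and Cks2 act in cell division. Since the rule left out tendon and dividing cells, these differences follow from it. F13a1, a subunit of coagulation factor XIII, was highest in the Clic5 cells, at 1010 CPM in TS and 474 CPM in NTS, against 34.3 CPM in TS members and 16.9 CPM in NTS members.

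Members were not uniform. Bright members had more of several genes than the remaining, dim members in both libraries. Ptgis, prostacyclin synthase, had 92.4 CPM in bright and 34.9 CPM in dim members of TS, and 73.4 CPM in bright and 3.08 CPM in dim members of NTS. Cd55, which protects cells from complement, had 218 and 65.5 CPM in TS and 363 and 45.8 CPM in NTS. Pcolce2, Pcsk6, Cadm3, Timp3, Ace, Tnxb, Cd34, Tgfbr2, Anxa3, Sema3c and Cd200 were also at least 2-fold higher in bright members of both libraries.

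Dim members had more of another set of genes. Saa3, an acute-phase protein, had 1044 CPM in bright and 4461 CPM in dim members of TS, and 2111 and 6061 CPM in NTS. Slpi, a secreted protease inhibitor, had 206 and 1215 CPM in TS and 223 and 1702 CPM in NTS. Tnc, or tenascin-C, had 74.4 and 234 CPM in TS and 88.9 and 226 CPM in NTS, and Sdc1, Inhba, Tnn, Hp, Nt5dc2, Ccn4 and Rgcc were also lower in bright members. Bright and dim are cuts along 1 continuous level, and whether they hold different cell types was not tested.

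Members with a UMI of Dpp4, 331 in TS and 95 in NTS, stood toward the bright end. Pi16 was at 5078 CPM in those with Dpp4 and 2477 CPM in those without in TS, and at 7939 and 2184 CPM in NTS. Median depths were close, at 13765 UMIs with and 12151 without Dpp4 in TS and 22183 with and 22251 without in NTS. Myoc, encoding myocilin, had 625 CPM with and 312 CPM without Dpp4 in TS, and 454 and 50.5 CPM in NTS. Wnt2, a Wnt ligand, had 29.1 and 13.6 CPM in TS and 54.1 and 8.79 CPM in NTS, and Il6 ran the other way, at 515 and 1029.5 CPM in TS and 169 and 252 CPM in NTS.

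Between the libraries, 10846 genes had at least 100 UMIs in the members together. In TS, 475 genes (4.38%) were at least 2-fold higher than in NTS and 441 (4.07%) at least 2-fold lower, and the median log2 ratio was 0.03. The 25th and 75th percentiles of the log2 ratios were -0.30 and 0.36, and 5716 genes were higher in TS and 5130 lower. Of the 28 adventitial markers besides the rule genes, 19 were higher in TS and 9 lower, 4 of them at least 2-fold higher and 0 at least 2-fold lower, with a median of 0.32. In bright members 16 were higher and 12 lower, 3 of them at least 2-fold higher, and the median was 0.09, so the tilt of the list toward TS is smaller there.

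The adventitial markers that differed most between the libraries were higher in TS members. Pcolce2 had 384 CPM in TS and 166 CPM in NTS, a log2 ratio of 1.21 (1.14 to 1.29), and was found in 46.2% of thinned TS members and 23.6% of thinned NTS members. Opcml, a cell adhesion molecule, had 15.3 CPM in TS and 4.97 CPM in NTS, and Uchl1, a ubiquitin hydrolase, had 7.63 CPM in TS and 2.77 CPM in NTS, but in thinned members their log2 ratios were 0.76 and 0.78, under 2-fold. Pcolce2 was likewise under 2-fold in bright members, at 0.81. Ly6c1, a surface antigen, had 1747 CPM in TS and 1149 CPM in NTS, a log2 ratio of 0.60, and Tnxb had one of 0.57.

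Other adventitial markers were lower in TS members, none by 2-fold. Cd55 had 162 CPM in TS and 215 CPM in NTS, a log2 ratio of -0.41 (-0.48 to -0.34). Mfap5, a microfibril protein, had 1162 CPM in TS and 1451 CPM in NTS, and Igfbp6, which binds IGF-II, had 622 CPM in TS and 814 CPM in NTS. In bright members these ratios lay farther from 0, at -0.74 for Cd55, -0.75 for Mfap5 and -0.82 for Igfbp6. Fbn1, which encodes fibrillin-1, was at 0.21 in all members and 0.04 in bright ones, and Cd34 was at 0.34 and -0.02.

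The largest ratio upward was that of Smpd3, neutral sphingomyelinase 2, which makes ceramide and is itself on the adventitial list. It lies on the minus strand at chr8:106252548-106337988. Smpd3 had 1377 UMIs, or 54.1 CPM, in TS members and 9 UMIs, or 0.86 CPM, in NTS members, a log2 ratio of 5.98 (5.05 to 7.11). In thinned cells it was found in 8.87% of TS members and 0.451% of NTS members. Other collagen cells held less of it, 5.18 CPM in TS and 0.178 CPM in NTS, with a ratio in the same direction of 4.86, and T cells had 1.36 CPM in TS and 0 in NTS.

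Matrix and carrier proteins followed. Col6a5, a collagen VI chain, had 97.3 CPM in TS members and 7.64 CPM in NTS members, a log2 ratio of 3.67 (3.35 to 4.01). Apod, apolipoprotein D, a lipid carrier, was the most abundant gene of this set, with 4799 CPM in TS members and 1155 CPM in NTS members, a log2 ratio of 2.06 (2.03 to 2.08). Igfbp3, an IGF-binding protein, had 273 CPM in TS and 52.2 CPM in NTS, a log2 ratio of 2.39. For all 3 genes the other collagen cells differed in the same direction, with log2 ratios of 3.88 for Col6a5, 1.84 for Apod and 2.44 for Igfbp3.

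Il6, the inflammatory cytokine interleukin-6, had 931 CPM in TS members and 235 CPM in NTS members, a log2 ratio of 1.98 (1.92 to 2.04), with 46.2% of thinned TS members and 25.5% of thinned NTS members positive. Hmox1, the haem-degrading enzyme, had 279 CPM in TS and 70.8 CPM in NTS. T cells had 84.4 CPM of Hmox1 in TS and 131 CPM in NTS, lower in TS and so in the opposite direction to members. The red cell list differed between the libraries in members, as given above, and summed to 791 CPM in T cells of TS and 4.1 CPM in those of NTS. Its part in the Hmox1 values was not tested. Slco2a1, a prostaglandin transporter, had 79.6 CPM in TS and 12.4 CPM in NTS. Serpina3c, a serine protease inhibitor, had 50.7 CPM in TS and 8.79 CPM in NTS. Galnt15, Spata7, Snhg3 and Daglb completed the 12, with log2 ratios of 2.49, 2.32, 2.27 and 1.92; of these, Galnt15, Spata7 and Snhg3 were higher in TS T cells too, at 14.97, 137 and 129 CPM in TS and 2.64, 31.9 and 35.4 CPM in NTS. T cells also had 348 CPM of Apod in TS and 19.0 CPM in NTS, and 52.1 CPM of Il6 in TS and 17.9 CPM in NTS, below the members of the same library.

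The lowest ratio was that of Mmp13, an interstitial collagenase, on the plus strand at chr9:7272514-7283331. Mmp13 had 7.90 CPM in TS members and 269 CPM in NTS members, a log2 ratio of -5.09 (-5.30 to -4.88). It was found in 0.812% of thinned TS members and 12.6% of thinned NTS members. Bright members had less of it than all members, 1.98 CPM (32 UMIs) in TS and 97.15 CPM (544 UMIs) in NTS. The other collagen cells had 83.9 CPM in TS and 298 CPM in NTS, a ratio of -1.83, nearer to 0 than that of members, a difference that was not tested.

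Receptor, transcription factor and protease genes were also lower. Agtr2, the type 2 angiotensin receptor, had 4.40 CPM in TS members and 56.5 CPM in NTS members, a log2 ratio of -3.68. Epas1, the hypoxia-inducible factor HIF-2 alpha, had 13.6 CPM in TS and 94.4 CPM in NTS, a log2 ratio of -2.80. Htra4, a serine protease on the sheath list, had 35.6 CPM in TS and 312 CPM in NTS, a log2 ratio of -3.14, and the other collagen cells pooled had 211 CPM in TS and 159 CPM in NTS, a ratio of 0.41. The pooled sign was not that of the named groups within them, whose log2 ratios were -0.40 in tendon cells, -0.53 in Clic5 cells and -0.17 in the cells chosen on Cxcl14 and Inmt. Clic5 cells, which had 634 CPM of Htra4 in TS and 914 CPM in NTS, were 612 of 3818 other collagen cells in TS and 85 of 1509 in NTS, and the part of this make-up in the pooled ratio was not tested. T cells had 63.2 CPM of Htra4 in TS and 2.64 CPM in NTS, higher in TS and so in the opposite direction to members. Cpxm2, Fibin and Kng2 had log2 ratios of -2.38, -2.36 and -2.33.

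**Figure D3:**
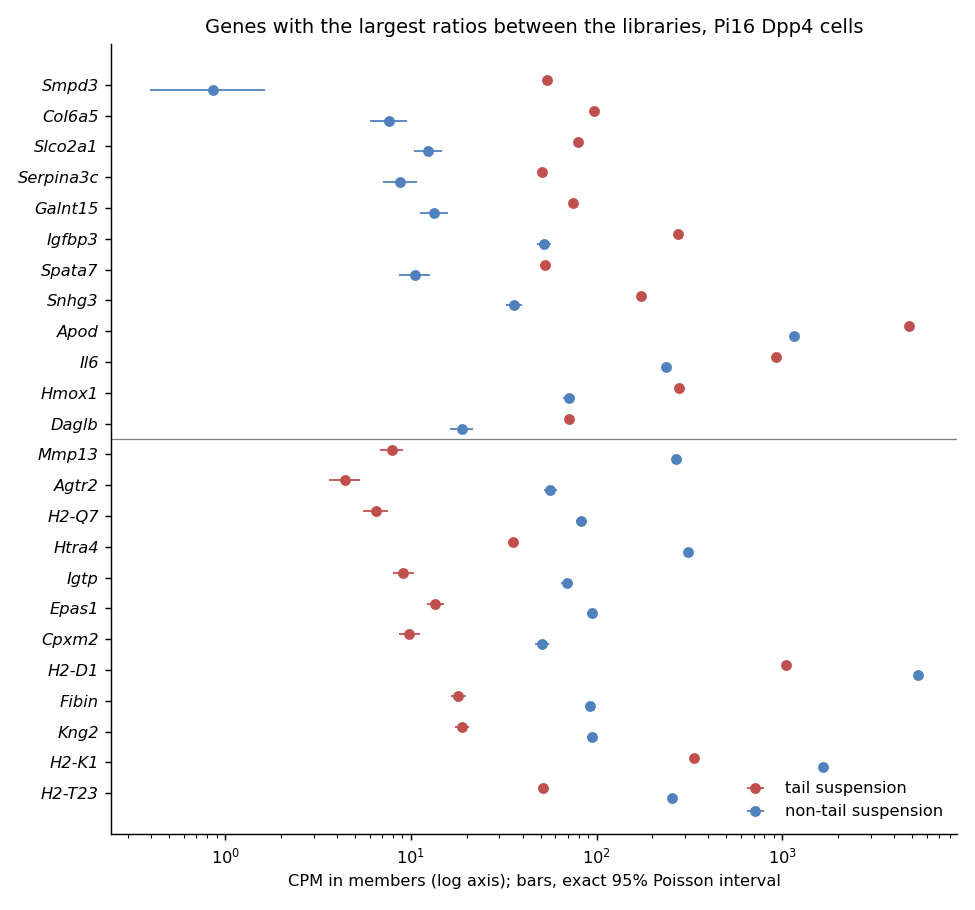
Level in members, as CPM on a log axis, of the 12 genes with the largest and the 12 with the smallest ratio between TS and NTS under the naming rule; bars are exact 95% Poisson intervals. The 12 upper genes are to the right in TS and the 12 lower ones, among them 5 MHC class I or interferon genes, to the right in NTS.

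Of the 12 lowest genes, 5 belong to antigen presentation or the interferon response. H2-D1, an MHC class I heavy chain, had 1047 CPM in TS members and 5404 CPM in NTS members, a log2 ratio of -2.37 (-2.39 to -2.35). H2-K1, another class I chain, had 333 CPM in TS and 1652 CPM in NTS. H2-Q7 and H2-T23, non-classical class I genes, had log2 ratios of -3.68 and -2.31, and Igtp, an interferon-induced GTPase, one of -2.93. These class I genes have close copies, and how reads shared by them were counted is not given in the sources used here.

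Nearly all measured genes of both lists were lower in TS members. Of 20 measured genes of antigen presentation, 20 were lower in TS members and 12 were at least 2-fold lower, with a median log2 ratio of -1.64. B2m, the light chain of class I, had 795 CPM in TS members and 2838 CPM in NTS members. Of 36 measured interferon-inducible genes, 35 were lower, 27 at least 2-fold, and 0 were at least 2-fold higher, with a median of -1.54. List genes needed at least 20 UMIs in members, and of the 13710 genes with that many, 7.68% were at least 2-fold higher in TS and 5.72% at least 2-fold lower.

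The members were not alone in this. The median of the interferon list was -2.02 in the other collagen cells and -0.89 in T cells, and that of antigen presentation was -1.58 in the other collagen cells and -1.11 in T cells. Iigp1, an interferon-inducible GTPase, had 76.3 CPM in TS members and 372 CPM in NTS members. Cxcl9, a T cell attractant, had 45.4 CPM in TS members and 206 CPM in NTS members, and Bst2, or tetherin, had 53.1 CPM in TS and 213 CPM in NTS. Ifitm3 was the most abundant of the list and differed little, at 2121 CPM in TS and 2386 CPM in NTS, and Ifit2 was level, at a log2 ratio of 0.01 (-0.45 to 0.49).

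**Figure D4:**
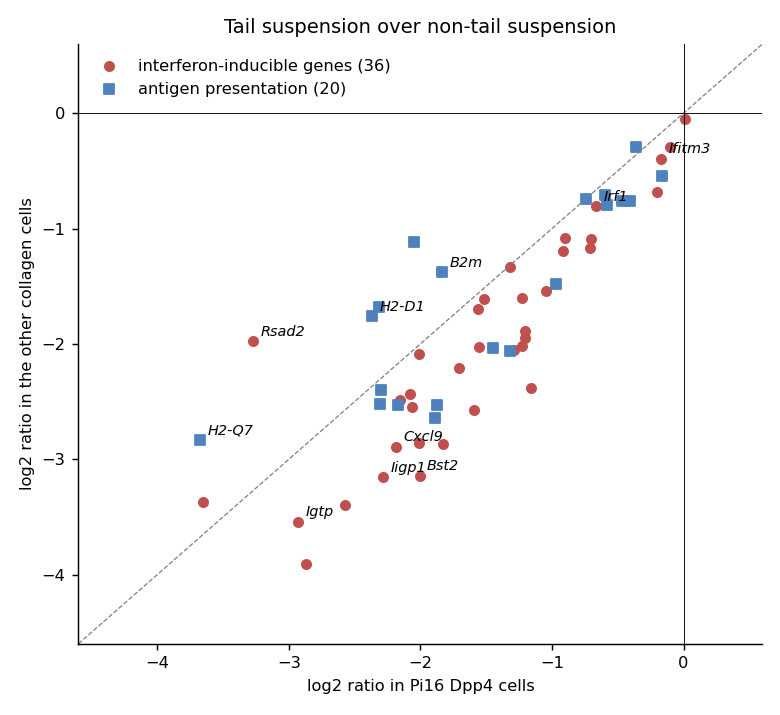
Log2 ratio of TS over NTS for each measured interferon-inducible (circles) and antigen presentation (squares) gene, in members (x axis) and in the other collagen cells (y axis), with the line of equal ratios dashed. All but 1 point lie below 0 on both axes, and most circles lie below the dashed line.

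The promoters of the interferon genes with the lowest ratios are shown because they carry, or lack, the letters that interferon-activated factors are known to bind. They were taken from RefSeq on GRCm38.p6, from 250 bases before to 50 after the start of the gene, for the 4 genes of the list with the lowest ratios among those with at least 100 UMIs in the members and 1 promoter in the table. Capitals mark matches, on either strand, to an interferon-stimulated response element, written as GAAA, 2 free bases and GAAA, and to TTCNNNGAA, a gamma-activated site. No match to one overlaps a match to the other in these 4 windows.
Rsad2, minus strand, chr12:26456403-26456702: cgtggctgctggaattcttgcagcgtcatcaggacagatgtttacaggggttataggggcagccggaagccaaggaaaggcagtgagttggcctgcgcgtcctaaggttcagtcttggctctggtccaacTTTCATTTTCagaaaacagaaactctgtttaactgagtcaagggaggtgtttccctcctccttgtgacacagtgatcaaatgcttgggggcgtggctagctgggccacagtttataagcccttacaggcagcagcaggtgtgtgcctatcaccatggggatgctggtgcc
Igtp, plus strand, chr11:58199306-58199605: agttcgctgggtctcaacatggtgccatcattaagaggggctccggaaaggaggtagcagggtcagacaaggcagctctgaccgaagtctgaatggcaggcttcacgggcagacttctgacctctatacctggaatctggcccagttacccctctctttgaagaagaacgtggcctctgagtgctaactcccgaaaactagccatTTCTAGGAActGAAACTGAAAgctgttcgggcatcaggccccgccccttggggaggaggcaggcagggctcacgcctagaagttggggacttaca
Ifi44, minus strand, chr3:151749861-151750160: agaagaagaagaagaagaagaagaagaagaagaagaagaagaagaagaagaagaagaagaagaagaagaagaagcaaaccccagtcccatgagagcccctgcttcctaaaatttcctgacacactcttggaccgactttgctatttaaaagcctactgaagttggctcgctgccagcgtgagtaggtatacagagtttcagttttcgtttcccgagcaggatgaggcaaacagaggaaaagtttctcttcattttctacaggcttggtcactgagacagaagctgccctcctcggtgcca
Oas1a, minus strand, chr5:120907476-120907775: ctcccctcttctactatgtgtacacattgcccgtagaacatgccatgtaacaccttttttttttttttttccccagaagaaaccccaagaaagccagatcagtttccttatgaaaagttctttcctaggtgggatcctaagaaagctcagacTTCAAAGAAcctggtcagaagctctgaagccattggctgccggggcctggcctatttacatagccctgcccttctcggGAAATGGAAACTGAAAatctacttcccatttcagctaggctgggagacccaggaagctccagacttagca

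Rsad2, or viperin, had 1.30 CPM in TS members and 12.5 CPM in NTS members. Ifi44 had 1.10 CPM in TS and 8.03 CPM in NTS, and Oas1a, an oligoadenylate synthetase, had 1.42 CPM in TS and 8.41 CPM in NTS. The response element was found in 18 of 29 interferon-inducible genes with a promoter in the table and in 3.44% of 32851 promoters, and the gamma-activated site in 11 of 29 and in 8.30%. A list gene was counted when any of its promoters matched, whereas each of the 32851 promoters was counted singly, so the shares are not on the same measure. Oas1a holds 2 overlapping response elements and Ifi44 holds neither motif in this window, which says only that the letters are absent there. Of 16 antigen presentation genes with a promoter, 3 held the response element and 2 the gamma-activated site.

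Of 18 hyaluronan genes measured, 14 were higher and 4 lower in TS members, with a median of 0.28. Just 1 was at least 2-fold higher and 1 at least 2-fold lower, near the shares of all genes. Tnfaip6, or TSG-6, which links hyaluronan chains, had 2427 CPM in TS and 1293 CPM in NTS. Has2, a second synthase, had 79.9 CPM in TS and 32.6 CPM in NTS, a log2 ratio of 1.29, and Gfpt2, which feeds the synthesis of amino sugars, had 529 CPM in TS and 267 CPM in NTS. Has1 and Ptx3, given above, had log2 ratios of 0.64 and 0.91 between the libraries, and Cemip, which degrades hyaluronan, had 13.2 CPM in TS and 27.1 CPM in NTS.

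Of 26 genes of collagens and their processing, 7 were higher and 19 lower in TS members, with a median of -0.32. At least 2-fold higher was 1 and at least 2-fold lower were 2, near the shares of all genes. The list holds the 3 collagens of the rule, and without them 7 of 23 were higher and 16 lower, with 1 at least 2-fold higher, 1 at least 2-fold lower and a median of -0.28. Col3a1, a gene of the rule, had 11609 CPM in TS and 20788 CPM in NTS, and Col1a1, also of the rule, had 4927 CPM in TS and 11501 CPM in NTS. Sparc, a collagen-binding protein, had 5844 CPM in TS and 13389 CPM in NTS. Pcolce2 ran the other way, with a log2 ratio of 1.21, and Col6a2 was at 0.42. Of the elastic fibre and microfibril genes, several of them adventitial markers, 11 of 24 were higher and 13 lower. None was at least 2-fold higher and 6 were at least 2-fold lower, beside 7.68% and 5.72% of all genes. Ltbp4 was at 0.82 and Fbn2 at -2.62.

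Inflammatory targets of IL-17, TNF and NF-kB were mixed, with 18 of 30 higher and 12 lower and a median of 0.17. Cxcl1, a neutrophil attractant, was their most abundant member, with 5793 CPM in TS and 4588 CPM in NTS. Tnfaip2 had 482 CPM in TS and 156 CPM in NTS, whereas Cxcl5, another neutrophil attractant, had 714 CPM in TS and 1878 CPM in NTS. Nfkbia, the inhibitor of NF-kB, had 734 CPM in TS and 1586 CPM in NTS.

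Among proteases and inhibitors, 11 of 26 were higher and 15 lower. Mmp3, or stromelysin-1, had 727 CPM in TS members and 2813 CPM in NTS members, a log2 ratio of -1.95, in the same direction as Mmp13. Adamts4 and Adamts1, which cleave proteoglycans, had log2 ratios of 1.59 and 1.11. Complement genes were lower in 17 of 20 cases, with a median of -0.46. Yet 3 were at least 2-fold higher and 1 at least 2-fold lower, beside 7.68% and 5.72% of all genes. Cfb, or factor B, had 626 CPM in TS and 1248 CPM in NTS, and Cfd, or adipsin, had 19.1 CPM in TS and 1.43 CPM in NTS.

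Signalling lists differed in parts. Of 29 Wnt genes, 20 were lower and 9 higher, with 7 at least 2-fold lower and 3 at least 2-fold higher. Their median was -0.47, with limits of -0.69 and 0.20 on either side of 0. Sfrp2, a secreted Wnt modulator, had 176 CPM in TS and 706 CPM in NTS. Ccn2, or connective tissue growth factor, a target of YAP and of strain, had 273 CPM in TS and 972 CPM in NTS, while of such targets 12 were higher and 9 lower (median 0.09). Fst, or follistatin, had 250 CPM in TS and 89.4 CPM in NTS. Igfbp4 had 1521 CPM in TS and 4257 CPM in NTS, and Hk2, a hexokinase, had 635 CPM in TS and 212 CPM in NTS.

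Adipogenic and lipid genes were higher in 19 of 26 cases, with 7 at least 2-fold higher and 1 at least 2-fold lower, beside 7.68% and 5.72% of all genes, and a median of 0.42 that was 0.05 after thinning; Cidec, a lipid droplet protein, rested on 46 UMIs in TS and 1 in NTS, and Angptl4 had 205 CPM in TS and 492 CPM in NTS. Bone and mineral genes were lower in 12 of 17 cases, with 2 at least 2-fold higher and 5 at least 2-fold lower, and a median of -0.71 in members, with limits of -1.23 and 0.54 on either side of 0, and 0.38 in other collagen cells. Spp1, or osteopontin, had 144 CPM in TS members and 894 CPM in NTS members, and Mgp, an inhibitor of mineralisation, had 385 CPM in TS and 1447 CPM in NTS. The markers of mineralising cells summed to 165 CPM in TS members, with 9 of 9 detected, and 914 CPM in NTS members, with 8 of 9 detected and Dmp1 at 0. Spp1 is on both lists and makes up most of these sums, and their part in the bone list was not tested. Glucocorticoid-responsive genes were higher in 15 of 20 cases, with 3 at least 2-fold higher and 2 at least 2-fold lower. Mt1, a metallothionein, was at 12094 CPM in TS and 7553 CPM in NTS.

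**Figure D5:**
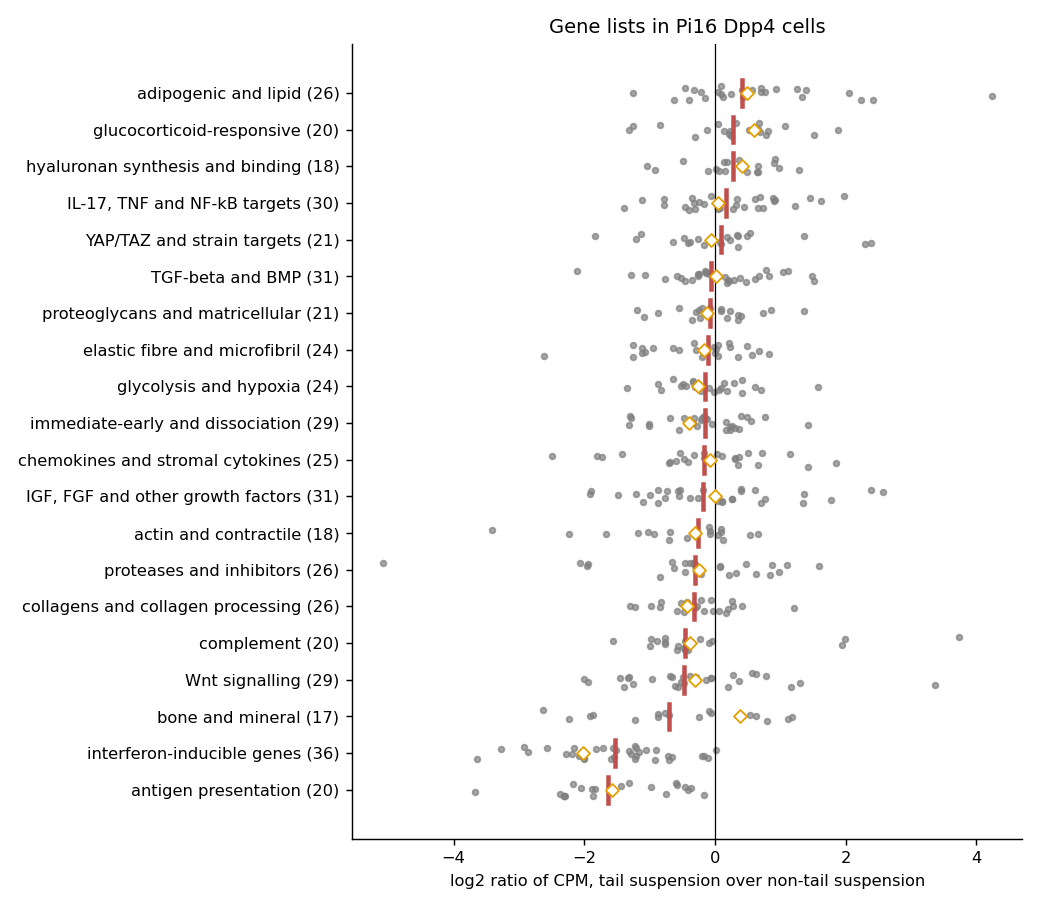
Log2 ratio of TS over NTS in members for each measured gene (grey points) of 20 gene lists, with the number measured in brackets; red bars are list medians in members and open diamonds list medians in the other collagen cells. The interferon and antigen presentation medians, -1.54 and -1.64, lie far left of the rest, and the bone list has its diamond farthest on the other side of 0, at 0.38.

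Bright members gave the same picture for the 2 lists that stood apart, with medians of -1.65 for interferon-inducible and -1.49 for antigen presentation genes. Mmp13 had a log2 ratio of -5.62, Smpd3 one of 5.66, Il6 one of 2.14 and Apod one of 1.69 in bright members. Members carried RNA of other fibroblast lists as well. The inflammatory fibroblast list summed to 12814 CPM in TS members and 16248 CPM in NTS members, and the interstitial list to 10926 CPM in TS and 7861 CPM in NTS, beside 17414 CPM in TS and 15646 CPM in NTS for the adventitial list. The list led by Myoc and Sfrp4 summed to 2509 CPM in TS and 2047 CPM in NTS. Of immune lists, that of T cells summed to 23.3 CPM in TS and 17.4 CPM in NTS, with 9 of 9 genes detected in each, and that of macrophages to 280.2 CPM in TS and 345 CPM in NTS, with 12 of 12 detected. Neutrophil genes summed to 953 CPM in TS and 898 CPM in NTS. The sheath list, without Clic5, which the rule set to 0, summed to 6599 CPM in TS members and 4655 CPM in NTS members, and in T cells to 4760 CPM in TS and 292 CPM in NTS; its part in the results was not tested.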

How the data were processed

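Single-cell RNA of the Achilles tendon enthesis was counted in 1 TS and 1 NTS library. The deposited matrices hold raw UMI counts, and no normalization was seen in them. Cell Ranger 5.0.1 and GRCm38 are named in the submitters' processing notes. Counts were summed over members per library and given as CPM. Ratios are TS over NTS with exact conditional binomial 95% intervals. Cells are not replicates, so no test was made. Python 3.11.15, numpy 2.4.6, scipy 1.17.1, pandas 2.3.3 and scanpy 1.11.5 were used.

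Members, gene lists and the naming rule were chosen with earlier results of these data known. The naming rule took the 12 highest and 12 lowest ratios among genes with at least 100 UMIs in members, and at least 50 CPM and 10% of cells where higher, leaving out mitochondrial, ribosomal, haemoglobin and predicted genes, those of the rule and markers of non-fibroblast cells. From each list, the most abundant and the 2 largest and 2 smallest ratios (at least 20 UMIs) could be named; other list genes, Dpp4 split genes, the motifs and the T cell limit of under 1% S100a8 and S100a9 UMIs were chosen after their values were seen. Doublets stayed in. Scrublet was run as an alternative with 3 random seeds in each library, because seed 0 called 0 NTS cells where seeds 1 and 2 called 133 and 135; in TS the seeds called 492, 492 and 556. Cells called by at least 2 seeds, 513 in TS and 123 in NTS, were left out there, a rule set after seeing this.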

Additional observations from a re-analysis of the deposited data

Results flagged for a closer look

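Htra4 was singled out because its ratio of TS over NTS had opposite signs in 2 groups of cells, with both counting intervals away from 0. Its log2 ratio was -3.14 (-3.24 to -3.03) in members and 0.41 in other collagen cells pooled, and the difference between them was not tested, since each group of mice is 1 library. Within the pooled cells it was -0.40 (-0.59 to -0.21) in tendon cells, -0.53 (-0.59 to -0.46) in Clic5 cells and -0.17 (-0.31 to -0.04) in Cxcl14 Inmt cells, all of the same sign as in members. Clic5 cells were 612 of 3818 other collagen cells in TS and 85 of 1509 in NTS, and their part in the pooled ratio was not tested.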

How the results depend on the processing

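The difference in the share of collagen cells, 8.87 percentage points higher in TS, ran from 6.67 to 11.03 over 10 other settings. Among kept cells it was 8.28 points, against 6.92 with at least 4 Pi16 and Dpp4 UMIs, 1.54 with collagens at least 2%, 7.22 with cells of 5000 to 40000 UMIs, 10.1 with at least 1 UMI, 7.10 in thinned cells and 5.80 with at least 0.1% of UMIs, the last chosen after seeing the data. Genes at least 2-fold higher and lower numbered 246 and 168 in members thinned to 2000 UMIs, 1053 and 784 with a minimum of 20 UMIs per gene, and 214 and 206 with 500. Without called doublets they were 466 and 474. The adipogenic list's median was 0.045 in thinned members. The medians of the TGF-beta, proteoglycan, glycolysis and chemokine lists lie near 0 and changed sign in at least 1 setting, so no direction is given for them; the other lists and the 24 named genes kept theirs. Over all settings, 216 values of named genes moved by less than their counting interval and 72 by more. The causes were not tested. No paired analysis was possible because each group is 1 library. Summed over members, NTS held 10465319 UMIs and TS 25428603, so genes under about 1 CPM rest on few UMIs, most of all in NTS.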
